A study of Mus musculus with 9 samples.

Results

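The genes described here encode enzymes that write or erase marks on histones and DNA, and proteins that read them, in mouse liver with and without O-GlcNAc transferase (OGT). They were picked by a rule on gene symbols: every symbol of the Kdm, Kmt, Setd, Ezh, Kat, Hdac, Sirt, Dnmt and Cbx families that is followed by a digit, leaving out Kdm5d. The rule found 71 of the 24421 gene symbols listed, and 68 of them passed the filter on low counts and were tested, each with at least 10 counts in every library. RNA sequencing was done on whole liver of C57BL/6J mice aged 5 weeks that had been without food for 6 h. The WT group held 5 control littermates, labelled Wildtype, and the OGT-deficient group held 4 mice with OGT deleted, labelled OGT-deficient. As many mice as libraries are counted in the design text, and a library is treated here as 1 mouse. For the deletion method, the liver cells it reached, and the sex and litter of each mouse, nothing is given in the sources used here.

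OGT places a single sugar, N-acetylglucosamine, on proteins of the nucleus and cytoplasm, many of them chromatin proteins. Histone methyltransferases (Kmt, Setd, Ezh) and acetyltransferases (Kat) write marks on histone tails, which lysine demethylases (Kdm), histone deacetylases (Hdac) and sirtuins (Sirt) remove. DNA methyltransferases (Dnmt) methylate cytosine in CpG dinucleotides, and chromobox proteins (Cbx) bind methylated histone lysines. In liver these enzymes are known for their part in hepatocyte identity, fasting metabolism and regeneration, and several sirtuins act in mitochondria rather than on chromatin.

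Libraries held 32337861 to 54130901 counts in genes, so that 3 counts corresponded to 0.0554 to 0.0928 CPM, the count of a gene relative to the scaled total of its library. Ogt stood at 51.1 to 73.1 CPM in WT and 14.3 to 20.6 CPM in OGT-deficient liver and the label of each of the 9 libraries matched its Ogt level. The design text speaks of both sexes, but the Y-linked gene Ddx3y was present in all 9 libraries (55.4 CPM or more) and Xist did not exceed 1.13 CPM. Alignments to more than a single place, which entered no gene count, numbered 7997176 to 9317390 in OGT-deficient and 16167401 to 35276937 in WT libraries. Their part in the results below was not tested.

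Rises among the chromatin genes were led by Setd7, Cbx6, Dnmt1 and Dnmt3b and falls by Sirt4, Kdm4b and Hdac6. Of the 68 tested, 13 rose and 22 fell in OGT-deficient liver, judged by an adjusted p under 0.05 (edgeR's quasi-likelihood test, adjusted over all 14104 tested genes). That is 19.1% higher and 32.4% lower, where 31.6% and 29.4% of all tested genes were called higher and lower. Together 51.5% of the chromatin genes were called, against 61.1% of all genes, so a call by itself does not set a chromatin gene apart. Changes of at least 2-fold were found for 7 of them (10.3%), against 21.6% of all genes, and the median size of change was 0.26 on the log2 scale, against 0.45. The median log2 change (log2 of the OGT-deficient over the WT level) was -0.12 for the chromatin genes and 0.02 for all tested genes. The 4 OGT-deficient and 5 WT values did not overlap for 28 chromatin genes (41.2%), against 51.3% of all genes.

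**Figure D1:**
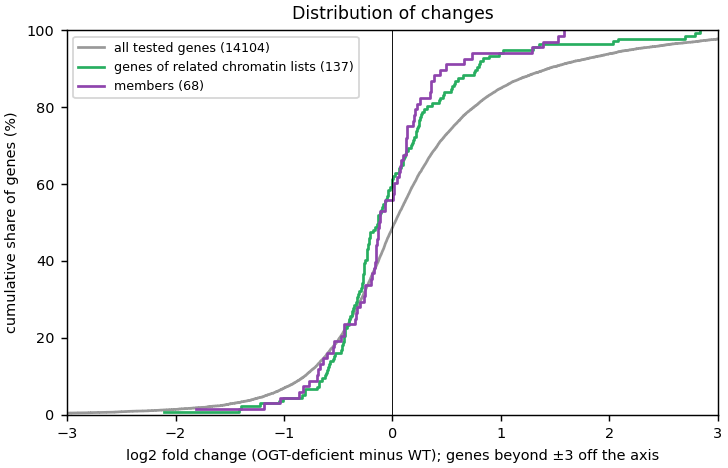
Cumulative share of genes (y axis, percent) by log2 change between OGT-deficient and WT liver (x axis), for all 14104 tested genes, for 137 genes of related chromatin lists and for the 68 chromatin genes. The curve of the chromatin genes is the steepest around 0, with a median size of change of 0.26 against 0.45 for all genes.

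The balance of rises and falls depended on the scaling. With upper-quartile factors in place of trimmed means of M-values (TMM), the median of all genes moved from 0.02 to 0.14 and the split from 13 higher and 22 lower to 18 higher and 17 lower. Rises then made up 51.4% of the called chromatin genes in place of 37.1%. Changes of at least 1.5-fold numbered 6 upward and 11 downward among the chromatin genes, and these 17 kept their direction and their call in all 16 alternative analyses. Of all tested genes, 22.5% were at least 1.5-fold higher and 15.7% at least 1.5-fold lower.

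**Figure D2:**
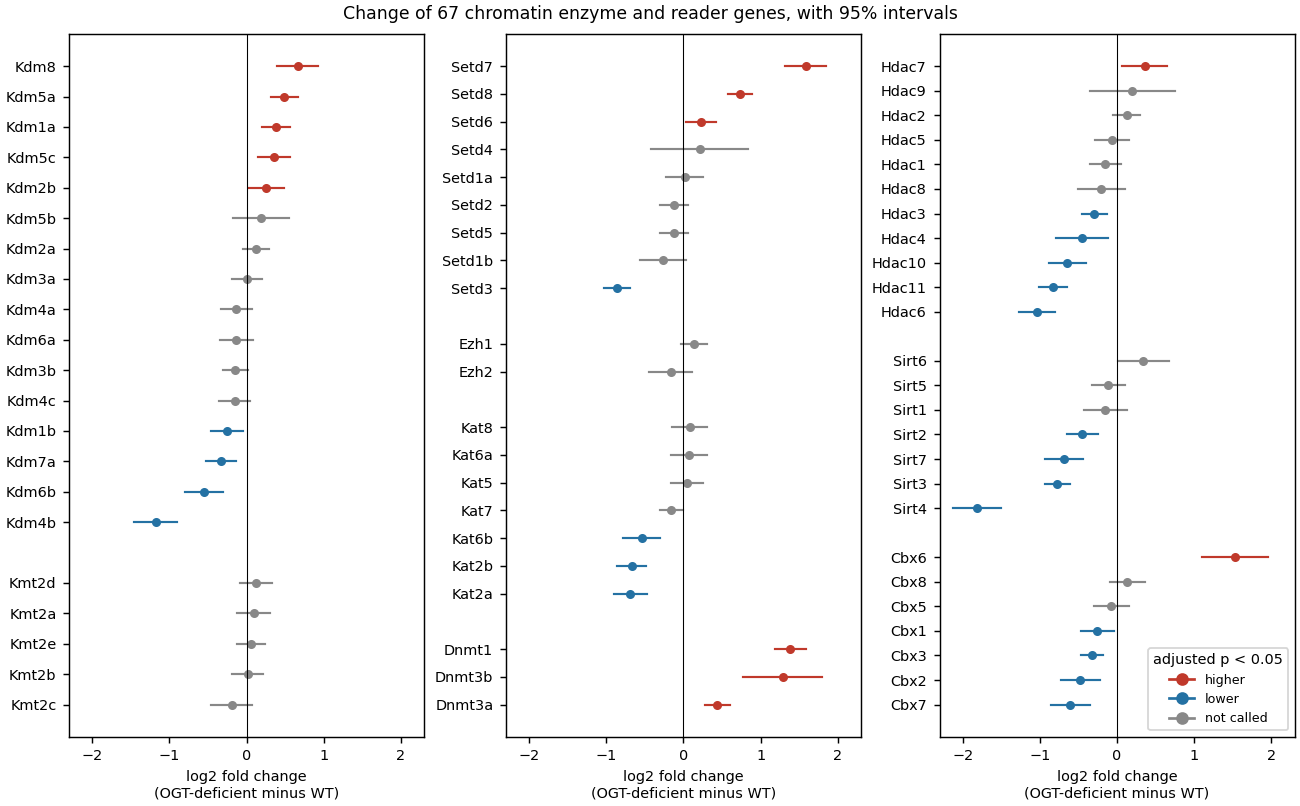
Log2 fold change (x axis, OGT-deficient minus WT) of 67 tested genes, ordered by size within each family, with its 95% interval. Red genes were called higher (13), blue genes lower (21) and grey genes were not called (33), and no Kmt or Ezh gene is coloured.

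All 3 tested DNA methyltransferase genes rose, next to 31.6% of all tested genes. Dnmt1 (chromosome 9, 20907209 to 20959888, minus strand, GRCm38), which copies methylation to the new strand after replication, measured 19.7, 16.0, 17.6, 16.4 and 16.7 CPM in WT 1 to 5. In OGT-deficient 1 to 4 it measured 51.1, 41.4, 47.5 and 40.8 CPM. The groups did not overlap, and within each the values stayed close together. The mean rose from 17.3 ± 1.47 (SD, n = 5) to 45.2 ± 4.99 CPM (SD, n = 4). The log2 change was 1.38 (SE 0.09, adjusted p = 1.57e-07 in edgeR).

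Of the 2 de novo enzymes, which methylate unmarked DNA, the scarcer moved further. Dnmt3b (chromosome 2, 153649450 to 153687730, plus strand) measured 2.67, 1.30, 2.33, 1.18 and 1.73 CPM in WT and 4.07, 5.54, 4.53 and 3.97 CPM in OGT-deficient liver. The groups did not overlap, although the WT values spread more than 2-fold (log2 change 1.29, SE 0.24, adjusted p = 0.000456 in edgeR). In all, 11.5% of the 50-base stretches of its longest transcript occur in another annotated gene. Dnmt3a measured 45.6, 40.3, 40.1, 42.6 and 37.7 CPM in WT and 57.5, 57.6, 54.9 and 53.4 CPM in OGT-deficient liver, and rose by 0.44 on the log2 scale without overlap. Per kb of exon, Dnmt1 made up 44.9 ± 0.902% of the summed Dnmt level in WT and 58.4 ± 2.91% in OGT-deficient liver, while Dnmt3a went from 47.6 ± 2.31% to 32.1 ± 1.80%. The ratio of Dnmt1 to Dnmt3a per kb ran from 0.871 to 0.9997 in WT against 1.62 to 2.004 in OGT-deficient libraries. Dnmt3l, the catalytically inactive partner of the de novo enzymes in germ cells, had 0 counts in all 9 libraries. The antisense transcript Dnmt3aos did not exceed 0.362 CPM. Neither was tested.

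Promoter windows from RefSeq (GRCm38.p6) were found for 57 of the 71 genes, and the 250 bases before the start are shown for the genes changed at least 2-fold whose window lies outside annotated exons. The windows shown differ in base makeup, and only Dnmt1 and Dnmt3b among them share a family. Capitals mark the CCAAT box, searched on both strands. Dnmt1 has 3 windows, of which 2 are given, and gene counts do not tell which start was used.
Dnmt1, first window, chr9:20959889-20960138, minus strand: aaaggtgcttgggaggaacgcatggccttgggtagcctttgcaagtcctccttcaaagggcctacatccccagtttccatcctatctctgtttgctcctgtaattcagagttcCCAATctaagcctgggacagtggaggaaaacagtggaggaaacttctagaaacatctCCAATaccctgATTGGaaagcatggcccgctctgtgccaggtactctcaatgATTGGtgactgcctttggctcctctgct
Dnmt1, next window, chr9:20952980-20953229, minus strand: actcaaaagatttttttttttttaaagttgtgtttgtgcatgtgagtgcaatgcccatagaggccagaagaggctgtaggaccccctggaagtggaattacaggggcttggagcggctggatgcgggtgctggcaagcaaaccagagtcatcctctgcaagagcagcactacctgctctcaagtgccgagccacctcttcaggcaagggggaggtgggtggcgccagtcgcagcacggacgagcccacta
Dnmt3b, chr2:153649199-153649448, plus strand: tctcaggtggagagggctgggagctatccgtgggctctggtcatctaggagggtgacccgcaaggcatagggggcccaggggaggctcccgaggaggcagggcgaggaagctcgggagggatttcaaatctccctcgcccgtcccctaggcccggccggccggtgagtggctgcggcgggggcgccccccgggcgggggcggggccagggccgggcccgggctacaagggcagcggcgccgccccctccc
Hdac6, chrX:7947890-7948139, minus strand: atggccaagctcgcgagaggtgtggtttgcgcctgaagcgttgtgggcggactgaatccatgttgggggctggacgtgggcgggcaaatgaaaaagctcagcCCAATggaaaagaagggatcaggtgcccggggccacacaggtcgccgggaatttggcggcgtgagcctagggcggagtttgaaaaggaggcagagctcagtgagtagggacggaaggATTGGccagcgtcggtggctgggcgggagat

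The Dnmt3b window holds 75.2% G and C and 21 CpG dinucleotides, while the first Dnmt1 window holds 50.4% and 2, with 4 CCAAT boxes. A CCAAT box was found in 27 of the 57 genes with a window (47.4%) and in 40.04% of 10708 tested genes with one. An E2F-type octamer (TTT, a pair of bases each C or G, then CGC, on either strand) was found in 4 of 57 (7.02%), against 3.71% of tested genes. These 4 were Dnmt1, which rose, in its remaining window, and Cbx3, Kat2a and Sirt4, which fell.

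Of 13 tested genes linked to DNA methylation 6 rose and 2 fell. Together 61.5% of them were called, next to 61.1% of all tested genes. This list includes Mbd and Gadd45 genes, so its counts are not those of the methylating enzymes and their cofactors alone. The replication-linked helicase gene Hells went from 0.752 ± 0.252 to 5.44 ± 1.17 CPM (log2 change 2.83). Mbd1, a reader of methylated CpG, rose from 46.0 ± 6.99 to 298.7 ± 139.4 CPM, and Gadd45b rose by 2.04 on the log2 scale. In OGT-deficient 1 to 4 Mbd1 measured 180.4, 427.6, 175.9 and 410.9 CPM, a wide spread. Its overlap and shared sequence with other genes were not examined. Uhrf1, which brings DNMT1 to newly replicated DNA and was chosen after its values were seen, measured 2.31, 1.51, 1.403, 0.659 and 0.626 CPM in WT and 5.54, 4.28, 6.14 and 6.66 CPM in OGT-deficient liver. Among the genes of the opposing demethylation enzymes, Tet1 rose from 0.271 ± 0.153 to 1.98 ± 0.637 CPM, Tet3 fell from 51.7 ± 7.06 to 35.3 ± 2.90 CPM and Tet2 stood at 9.42 ± 1.505 and 9.14 ± 1.35 CPM (adjusted p = 0.806 in edgeR). Tet2 and Tet3 were chosen after their values were seen.

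Proliferation markers moved with these genes: 7 of 8 rose, and their summed level was 51.5 to 77.9 CPM in WT and 144.5 to 190.5 CPM in OGT-deficient libraries. The part of cell division in the rise of Dnmt1 was not tested.

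**Figure D3:**
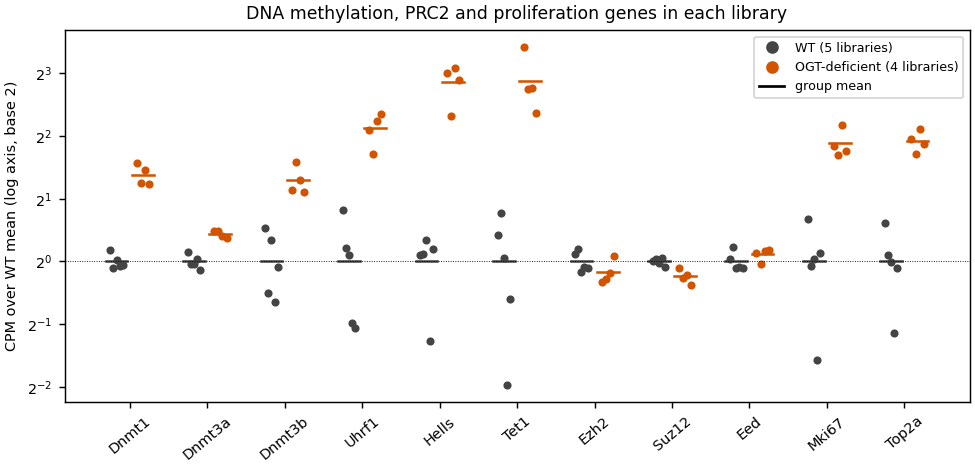
CPM of each library divided by the WT mean of the gene (y axis, log scale of base 2) for DNA methylation genes, genes of Polycomb repressive complex 2 (Ezh2, Suz12, Eed) and the proliferation markers Mki67 and Top2a. Dots are libraries and bars are group means: Dnmt1, Uhrf1 and Hells of OGT-deficient liver lie above WT, while the Ezh2 values of the groups overlap. Suz12, Eed, Mki67 and Top2a were chosen after their values were seen.

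The large methyltransferase genes showed no called change. None of the 5 Kmt2 genes, which encode the MLL family, most of them enzymes for histone H3 lysine 4, and neither Ezh gene was called in edgeR, and none had an unadjusted p under 0.05. Kmt2b, the Kmt2 gene with the highest level per kb, measured 67.3, 54.3, 66.9, 63.3 and 55.1 CPM in WT and 54.6, 66.3, 62.8 and 64.2 CPM in OGT-deficient liver, with full overlap. Its log2 change was 0.01 (adjusted p = 0.909). The others were Kmt2a (0.09, adjusted p = 0.435), Kmt2c (-0.19, adjusted p = 0.197), Kmt2d (0.12, adjusted p = 0.284) and Kmt2e (0.06, adjusted p = 0.541), and the 95% intervals of the 5 together spanned -0.46 to 0.33. Setd1a (0.02, adjusted p = 0.903) and Setd1b (-0.26, adjusted p = 0.109, and 0.0411 without WT 5), which serve the same mark, were not called either. For Setd1a 54.0% and for Kmt2e 12.7% of the 50-base stretches of the longest transcript occur in another annotated gene. Kmt2d was called higher with upper-quartile factors (log2 change 0.25, adjusted p = 0.0316 in edgeR).

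Ezh2, the catalytic subunit of Polycomb repressive complex 2 best known from dividing cells, measured 7.22, 7.58, 5.92, 6.24 and 6.1998 CPM in WT and 5.29, 5.47, 5.85 and 7.07 CPM in OGT-deficient liver. The ranges overlapped (log2 change -0.17, 95% interval -0.45 to 0.12, adjusted p = 0.283 in edgeR). Ezh1, the paralog of Ezh2 that prevails in resting cells, measured 21.02, 18.9, 19.7, 19.7 and 20.4 CPM in WT and 22.5, 24.0, 21.4 and 19.8 CPM in OGT-deficient liver (log2 change 0.14, adjusted p = 0.150 in edgeR). It made up 73.0 ± 2.38% of the Ezh level per kb in WT and 76.8 ± 3.78% in OGT-deficient liver, and with upper-quartile factors it was called higher (log2 change 0.26, adjusted p = 0.0126). Of 9 other tested subunits of Polycomb repressive complex 2, 3 rose and 3 fell, a called share of 66.7% next to 61.1% of all tested genes. The cofactor gene Aebp2 rose from 29.7 ± 1.63 to 59.97 ± 11.8 CPM, Phf1 fell from 27.2 ± 2.36 to 17.4 ± 1.62 CPM and Rbbp4 fell from 131.1 ± 9.32 to 98.0 ± 8.45 CPM.

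The Setd family held changes in both directions. Setd7 (chromosome 3, 51515319 to 51560879, minus strand), a lysine monomethyltransferase of histone H3 and of many other proteins, measured 15.1, 10.6, 10.5, 11.2 and 12.1 CPM in WT and 41.0, 31.8, 32.3 and 37.7 CPM in OGT-deficient liver. All OGT-deficient values stood clear of WT, and its log2 change of 1.58 (SE 0.12, adjusted p = 4.03e-07) was the largest rise of the 68 genes. Setd8 (annotated as Kmt5a, chromosome 5, 124439930 to 124462308, plus strand), the enzyme of histone H4 lysine 20 monomethylation, which acts in mitosis, measured 31.2, 32.8, 34.4, 32.1 and 31.7 CPM in WT and 53.7, 49.7, 54.6 and 58.1 CPM in OGT-deficient liver. The WT values were nearly level, and the log2 change was 0.74 (SE 0.07, adjusted p = 2.61e-06).

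Setd3 (chromosome 12, 108106431 to 108179314, minus strand), a histidine methyltransferase of actin, went the other way. It measured 93.0, 95.4, 84.8, 99.98 and 96.1 CPM in WT and 56.9, 49.3, 49.3 and 50.6 CPM in OGT-deficient liver, without overlap (log2 change -0.86, SE 0.08, adjusted p = 1.63e-06 in edgeR). In another annotated gene, 15.1% of the 50-base stretches of its longest transcript occur. As the Setd gene with the highest level per kb in WT, it made up 29.6 ± 1.56% of the family there and 16.3 ± 1.12% in OGT-deficient liver. Setd7 went from 2.09 ± 0.319% to 6.31 ± 0.672%. Setd6 rose by 0.23 on the log2 scale (adjusted p = 0.0453) but lost its call in 11 of 16 alternatives, among them without WT 1, 2, 3 or 4 or without OGT-deficient 1, 3 or 4 (adjusted p = 0.0520 to 0.179). Setd2, the enzyme of histone H3 lysine 36 trimethylation (log2 change -0.12, adjusted p = 0.241), Setd4 (0.21, adjusted p = 0.544) and Setd5 (-0.12, adjusted p = 0.230) were not called.

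Among 19 tested histone lysine methyltransferases outside these families, 7 rose and 8 fell (78.9% called, against 61.1% of all genes). With upper-quartile factors 7 rose and 3 fell. Setmar, a SET domain gene fused to a transposase in primates, fell from 3.66 ± 0.534 to 0.848 ± 0.148 CPM. Smyd5 rose from 13.4 ± 1.04 to 23.3 ± 0.627 CPM and Suv39h1, an enzyme of heterochromatic histone H3 lysine 9 methylation, from 9.10 ± 0.214 to 13.2 ± 0.652 CPM. Of 11 partners of the Kmt2 and Setd1 complexes, Psip1 rose and 4 fell, a called share of 45.5%. With upper-quartile factors 2 rose and 3 fell, and 2 rose without WT 1. The falls as reported include Paxip1 (29.9 ± 2.28 to 16.8 ± 1.62 CPM) and Cxxc1 (61.2 ± 5.83 to 46.2 ± 3.27 CPM).

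Of 16 tested lysine demethylase genes 5 rose and 4 fell (56.25% called, against 61.1% of all genes), mostly by less than 1.5-fold. The exception among the falls was Kdm4b (chromosome 17, 56326062 to 56402870, plus strand), a demethylase of histone H3 lysines 9 and 36. It measured 30.8, 27.6, 30.6, 32.3 and 24.0 CPM in WT and 10.3, 16.0, 12.6 and 12.5 CPM in OGT-deficient liver. The highest OGT-deficient value lay well below the lowest WT value (log2 change -1.18, SE 0.13, adjusted p = 6.63e-06 in edgeR). Its paralogs Kdm4a (-0.13, 95% interval -0.33 to 0.07, adjusted p = 0.240) and Kdm4c (-0.15, interval -0.36 to 0.05, adjusted p = 0.175) were not called. The ratio of Kdm4b to Kdm4a per kb ran from 0.849 to 1.16 in WT against 0.414 to 0.527 in OGT-deficient libraries. Kdm4d, with 8 counts over all libraries, was not tested.

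Demethylases of histone H3 lysine 4 rose in part. Kdm5c, the Kdm gene with the highest level per kb, is X-linked and measured 99.6, 79.6, 100.8, 85.04 and 82.7 CPM in WT and 104.2, 126.4, 115.8 and 111.7 CPM in OGT-deficient liver. The lowest OGT-deficient value stood just above the highest WT value (log2 change 0.35, SE 0.09, adjusted p = 0.00581 in edgeR). Kdm5a rose from 45.4 ± 3.09 to 63.9 ± 5.41 CPM and Kdm1a, which encodes LSD1, from 19.9 ± 1.11 to 26.0 ± 2.295 CPM, both without overlap. Kdm5b was not called (0.18, 95% interval -0.18 to 0.55, adjusted p = 0.356). Kdm1b, the paralog of Kdm1a, fell by 0.26 on the log2 scale (adjusted p = 0.0321) but lost its call in 7 of 16 alternatives, among them without WT 2, 4 or 5 or without OGT-deficient 1 or 3 (adjusted p = 0.0518 to 0.105).

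Kdm8 (chromosome 7, 125444676 to 125462269, plus strand), which encodes JMJD5, measured 3.97, 4.01, 4.10, 3.54 and 4.41 CPM in WT and 5.71, 6.1998, 7.14 and 6.32 CPM in OGT-deficient liver. The groups stood apart, with a log2 change of 0.66 (SE 0.12, adjusted p = 0.000475 in edgeR). The histone H3 lysine 27 demethylase Kdm6b fell from 44.1 ± 6.58 to 30.1 ± 2.67 CPM without overlap (log2 change -0.55, SE 0.11), while its X-linked paralog Kdm6a was not called (-0.14, 95% interval -0.35 to 0.08, adjusted p = 0.249). Per kb, the ratio of Kdm6b to Kdm6a overlapped between the groups, with 2.67 to 4.11 for WT and 2.13 to 2.77 for OGT-deficient libraries. Kdm7a fell by 0.33 on the log2 scale. Kdm2b rose by 0.26 (adjusted p = 0.0449) but lost its call in 10 of 16 alternatives, among them without WT 2, 4 or 5 or without any single OGT-deficient library (adjusted p = 0.0604 to 0.154). For Kdm2b, 23.8% of the 50-base stretches of the longest transcript occur in another annotated gene. Kdm2a (0.12, adjusted p = 0.173), Kdm3a (0.01, adjusted p = 0.950) and Kdm3b (-0.14, adjusted p = 0.100) were not called.

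The acetyltransferase genes fell or did not pass the test. Kat2b (chromosome 17, 53566861 to 53672720, plus strand), which encodes PCAF and had the highest level per kb of all 68 genes in WT, measured 126.6, 136.6, 119.3, 145.0 and 126.1 CPM in WT. In OGT-deficient liver it measured 73.9, 83.6, 79.3 and 91.7 CPM, all below WT (log2 change -0.67, SE 0.09, adjusted p = 3.21e-05 in edgeR). Its paralog Kat2a (chromosome 11, 100704746 to 100712465, minus strand), which encodes GCN5, measured 21.3, 21.6, 25.3, 22.3 and 26.0 CPM in WT and 12.8, 16.4, 15.0 and 13.7 CPM in OGT-deficient liver. It too fell without overlap, by 0.69 on the log2 scale (SE 0.10, adjusted p = 7.47e-05). Their ratio per kb, Kat2b over Kat2a, overlapped between the groups, at 3.38 to 4.66 and 3.64 to 4.79.

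Of the MYST acetyltransferases, Kat6b fell from 17.5 ± 2.04 to 12.0 ± 1.25 CPM. Kat7 lay lower in every OGT-deficient library (26.5 ± 0.833 to 23.8 ± 0.934 CPM) but was not called (adjusted p = 0.0627, and 0.0359 without OGT-deficient 1). Kat5 (0.04, 95% interval -0.17 to 0.25, adjusted p = 0.720), Kat6a (0.07, -0.17 to 0.31, adjusted p = 0.588) and Kat8 (0.08, -0.15 to 0.31, adjusted p = 0.519) were not called. For Kat5, 17.2% of the 50-base stretches of the longest transcript occur in another listed gene. In all 3 of 7 Kat genes fell and 0 rose (42.9% called, against 61.1% of all genes). Of 20 other acetyltransferases and partners 10 fell and 3 rose (65.0% called), or 8 and 5 with upper-quartile factors. The N-terminal acetyltransferase gene Naa10 fell from 27.2 ± 2.05 to 13.1 ± 0.219 CPM, Tada2b, an adaptor of the GCN5 complex, from 38.4 ± 2.57 to 19.0 ± 0.871 CPM and Msl1 from 67.1 ± 4.82 to 41.5 ± 3.35 CPM.

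Of 11 Hdac genes 5 fell and 1 rose (54.5% called, against 61.1% of all genes). The largest falls lay outside class I, which holds the deacetylases of the nuclear corepressor complexes. Hdac6 (chromosome X, 7930120 to 7947889, minus strand), the cytoplasmic deacetylase of tubulin, measured 24.7, 19.2, 20.8, 27.2 and 21.8 CPM in WT and 11.6, 11.1, 11.2 and 10.4 CPM in OGT-deficient liver. The OGT-deficient values were nearly level and all below WT (log2 change -1.04, SE 0.11, adjusted p = 4.52e-06 in edgeR). Hdac10 (chromosome 15, 89123307 to 89128700, minus strand), a polyamine deacetylase and the other member of class IIb, measured 10.9, 11.1, 13.2, 11.1 and 13.4 CPM in WT and 6.83, 7.43, 7.64 and 8.67 CPM in OGT-deficient liver, again without overlap (log2 change -0.64, SE 0.11).

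Hdac11 (chromosome 6, 91156665 to 91174692, plus strand), the single class IV enzyme, which removes long fatty acyl groups, had the highest level per kb of the family. It measured 100.4, 102.8, 86.7, 108.7 and 93.8 CPM in WT and 56.1, 51.3, 56.6 and 57.8 CPM in OGT-deficient liver. The groups were far apart relative to their spread (log2 change -0.83, SE 0.08, adjusted p = 3.57e-06 in edgeR), and its share of the summed Hdac level per kb went from 36.2 ± 2.58% to 27.1 ± 1.35%. In all, 22.8% of the 50-base stretches of its longest transcript occur in another annotated gene.

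In class I, Hdac3 fell from 44.5 ± 1.12 to 36.2 ± 3.22 CPM without overlap (log2 change -0.30, SE 0.08), a call lost with upper-quartile factors (adjusted p = 0.0772). Hdac1 (-0.15, 95% interval -0.36 to 0.05, adjusted p = 0.166), Hdac2 (0.13, -0.05 to 0.30, adjusted p = 0.185) and Hdac8 (-0.20, -0.51 to 0.11, adjusted p = 0.235) were not called. Hdac1 is uncertain, since 58.7% of its 50-base stretches occur in another annotated gene. In class IIa, Hdac4 fell by 0.45 on the log2 scale (adjusted p = 0.0230) and Hdac7 rose by 0.36 (adjusted p = 0.0347), both with overlapping groups, and these calls were lost in 4 and 6 of 16 alternatives. Hdac4 lost its call without WT 4, OGT-deficient 3 or OGT-deficient 4 (adjusted p = 0.0501 to 0.0650). Hdac7 lost it without WT 2, 4 or 5 or without OGT-deficient 1, 3 or 4 (adjusted p = 0.0639 to 0.0924). Hdac5 (-0.07, adjusted p = 0.575) and Hdac9 (0.19, adjusted p = 0.523) were not called. Of 21 partners in the NuRD, Sin3 and CoREST complexes 10 fell and 5 rose (71.4% called, against 61.1% of all genes). With upper-quartile factors 6 of these partners fell and 6 rose. The 3 with the smallest p were the remodeller gene Chd3 (197.8 ± 24.1 to 75.3 ± 12.5 CPM), Gps2 (19.98 ± 1.81 to 8.56 ± 1.21 CPM) and Brms1 (25.6 ± 2.98 to 16.0 ± 0.776 CPM).

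Sirtuins deacylate proteins with NAD as the cosubstrate. Of 7 Sirt genes 4 fell and 0 rose (57.1% called, against 61.1% of all genes). The median log2 change of the family was -0.45. Sirt4 (chromosome 5, 115478010 to 115484725, minus strand), a mitochondrial sirtuin that restrains amino acid catabolism, measured 11.0, 11.7, 12.1, 12.8 and 13.9 CPM in WT and 3.84, 3.10, 4.27 and 2.67 CPM in OGT-deficient liver. This was the largest fall of the 68 genes (log2 change -1.82, SE 0.15, adjusted p = 6.12e-07 in edgeR). Sirt3 (chromosome 7, 140863666 to 140882309, minus strand), the main mitochondrial deacetylase, measured 158.4, 171.3, 148.7, 155.2 and 154.0 CPM in WT and 90.7, 87.4, 98.3 and 92.1 CPM in OGT-deficient liver. The groups were clearly apart (log2 change -0.77, SE 0.07, adjusted p = 2.49e-06). Other listed genes cover 12.7% of its exonic bases.

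The third mitochondrial sirtuin gene, Sirt5, which encodes a desuccinylase, was not called (log2 change -0.11, 95% interval -0.32 to 0.10, adjusted p = 0.332), and 35.5% of its 50-base stretches occur in another listed gene. The ratio of Sirt4 to Sirt5 per kb ran from 1.88 to 2.77 in WT against 0.542 to 0.832 in OGT-deficient libraries. Sirt7 (chromosome 11, 120618372 to 120625240, minus strand), a nucleolar deacetylase, measured 64.0, 78.5, 76.5, 70.7 and 72.5 CPM in WT and 35.7, 41.1, 51.0 and 51.4 CPM in OGT-deficient liver. It fell without overlap, by 0.69 on the log2 scale (SE 0.11, adjusted p = 0.000188 in edgeR). The tubulin deacetylase gene Sirt2 fell from 44.9 ± 1.28 to 32.8 ± 4.45 CPM. Sirt1, the nuclear fasting sensor, was not called (-0.15, 95% interval -0.43 to 0.13, adjusted p = 0.325). Sirt6 was not called either (0.34, adjusted p = 0.0702), but was called higher with upper-quartile factors (0.46, adjusted p = 0.0221) and without WT 3 (0.41, adjusted p = 0.0439).

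**Figure D4:**
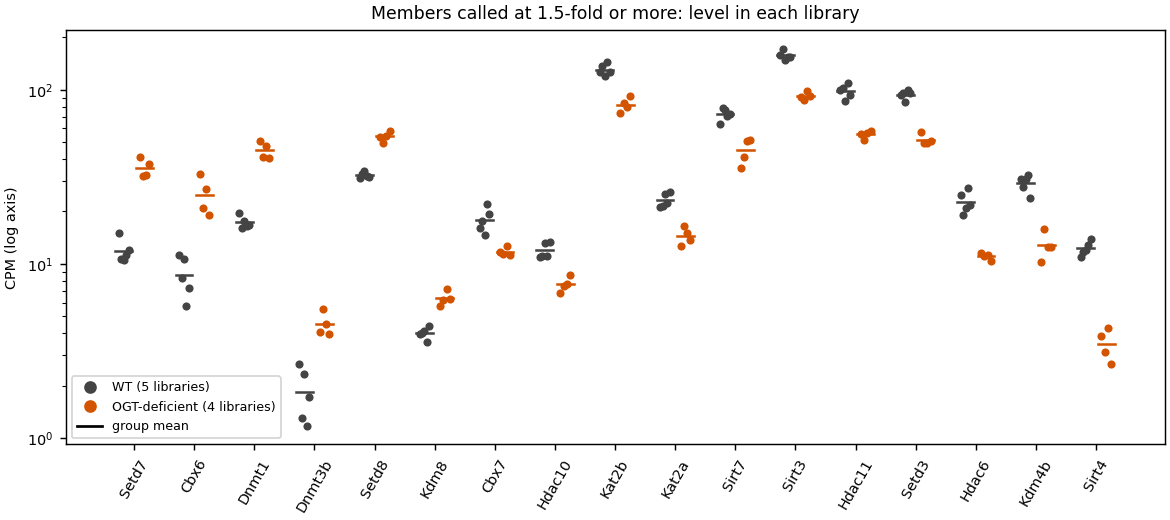
CPM in each library (y axis, log scale) of the 17 genes called at 1.5-fold or more, ordered from the largest rise to the largest fall. Dots are libraries, 5 WT in grey and 4 OGT-deficient in orange, and bars are group means; for each of these genes the groups stand apart.

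Among the readers, the Polycomb chromobox gene Cbx6 rose while Cbx2 and Cbx7 fell. These genes and Cbx8 encode alternative subunits of canonical Polycomb repressive complex 1, which bind trimethylated histone H3 lysine 27. Cbx6 (chromosome 15, 79823896 to 79834688, minus strand) measured 11.2, 8.25, 10.6, 5.76 and 7.24 CPM in WT and 32.8, 20.97, 26.9 and 19.1 CPM in OGT-deficient liver. Both groups spread widely but did not overlap (log2 change 1.53, SE 0.20, adjusted p = 2.97e-05 in edgeR). Npcd covers 5.31% of its exonic bases.

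Cbx7 (chromosome 15, 79915807 to 79971119, minus strand) measured 16.1, 17.6, 14.7, 22.0 and 19.3 CPM in WT and 11.7, 11.4, 12.7 and 11.2 CPM in OGT-deficient liver. It fell without overlap, by 0.61 on the log2 scale (SE 0.12, adjusted p = 0.000587 in edgeR). Cbx2 fell from 15.0 ± 2.16 to 10.8 ± 0.804 CPM. Cbx8 was not called (0.13, 95% interval -0.10 to 0.36, adjusted p = 0.295). The ratio of Cbx6 to Cbx7 per kb ran from 0.160 to 0.443 in WT against 1.04 to 1.72 in OGT-deficient libraries, so that the order of the pair was turned in every library.

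The heterochromatin protein 1 genes, whose products bind methylated histone H3 lysine 9, changed little. Cbx3 measured 48.7, 51.1, 48.3, 51.3 and 49.4 CPM in WT and 42.4, 39.2, 39.3 and 37.8 CPM in OGT-deficient liver, a small fall without overlap (log2 change -0.32, SE 0.07, adjusted p = 0.00108 in edgeR). Cbx1 fell by 0.26 (adjusted p = 0.0402) but lost its call in 8 of 16 alternatives, among them without WT 2, 3 or 4 or without OGT-deficient 2 or 4 (adjusted p = 0.0714 to 0.0988). Cbx5 was not called (-0.07, 95% interval -0.30 to 0.16, adjusted p = 0.564). Of the 15 other subunits of Polycomb repressive complex 1, 8 fell and 2 rose (66.7% called, against 61.1% of all genes). L3mbtl2 fell from 24.2 ± 1.30 to 9.08 ± 0.998 CPM, the ubiquitin ligase gene Ring1 from 36.2 ± 2.51 to 20.7 ± 2.83 CPM and Pcgf5 from 8.11 ± 1.06 to 4.63 ± 0.468 CPM.

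Summed over each family per kb of exon with TMM scaling, the Sirt, Hdac, Kat and Dnmt levels separated the groups. The Kdm, Setd, Kmt, Ezh and Cbx levels did not. The Sirt sum was 60.6 ± 2.06 CPM per kb in WT and 38.2 ± 2.23 in OGT-deficient liver, the Hdac sum 70.6 ± 1.63 and 53.2 ± 2.59, and the Kat sum 54.5 ± 2.35 and 41.8 ± 1.504. The Dnmt sum was 5.22 ± 0.436 and 10.5 ± 0.725. In these 4 families the libraries of the groups did not overlap. The Kdm sum (66.5 ± 3.48 and 66.2 ± 4.14), the Setd sum (52.6 ± 2.56 and 52.3 ± 1.88), the Kmt sum (17.2 ± 1.54 and 17.6 ± 1.07), the Ezh sum (3.67 ± 0.144 and 3.83 ± 0.147) and the Cbx sum (32.9 ± 1.397 and 28.8 ± 2.50) overlapped. The largest differences per kb within these families were those of Kat2b (26.9 to 16.9), Hdac11 (25.6 to 14.4), Sirt3 (26.4 to 15.4) and Dnmt1 (2.34 to 6.12 CPM). Kat2a went from 6.69 to 4.15, Sirt7 from 14.1 to 8.71, Sirt4 from 5.12 to 1.45 and Sirt2 from 8.91 to 6.52 CPM per kb. Opposite changes can cancel in a sum. Per kb, Setd3 went from 15.6 to 8.54, while Setd8 went from 6.12 to 10.2, Setd6 from 10.2 to 11.9 and Setd7 from 1.10 to 3.30. Since Sirt3 acts in mitochondria and Hdac11 removes long fatty acyl groups, the Sirt and Hdac sums are not levels of histone deacetylases alone. These sums are descriptions and carry no test. They were made with TMM scaling alone. Upper-quartile factors moved the median log2 change of all genes from 0.02 to 0.14, and which families separate with them was not tested.

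**Figure D5:**
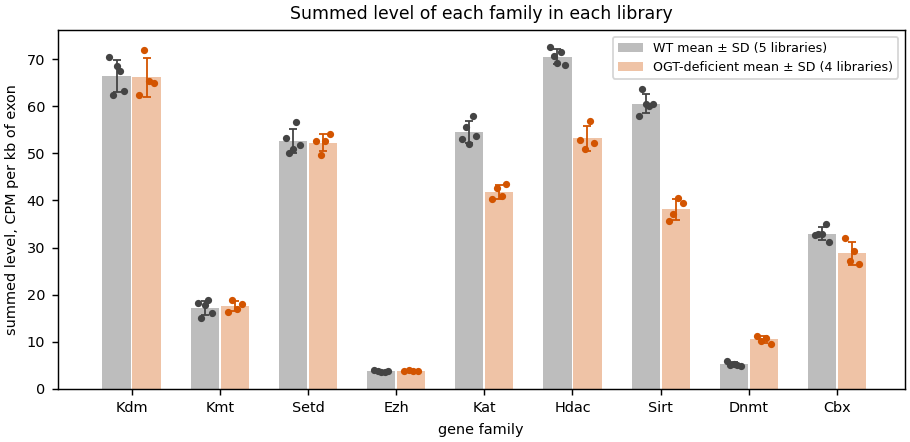
Summed level of each family in CPM per kb of exon (y axis, TMM scaling) in WT (grey, 5 libraries) and OGT-deficient liver (orange, 4 libraries). Bars are group means, whiskers are SD and dots are libraries; the groups stand apart for Kat, Hdac, Sirt and Dnmt.

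The genes with the highest levels fell most often, as genes in general did. The 5 chromatin genes with the highest WT level per kb, Kat2b (26.9), Sirt3 (26.4), Hdac11 (25.6), Setd3 (15.6) and Sirt7 (14.1 CPM per kb), all fell. Of 9 chromatin genes at 10 CPM per kb or more, 6 were lower (66.7%) and 2 higher, against 51.1% lower among 3556 tested genes of that level. Of 29 under 3 CPM per kb, 3 were lower (10.3%) and 8 higher (27.6%), against 14.3% and 45.4% of 6961 tested genes. Levels and calls share the WT libraries, and no test was made.

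Of 9 tested chromatin partners linked to OGT itself 3 rose and 3 fell, 33.3% each way, next to 31.6% and 29.4% of all tested genes. Hcfc1, which encodes the cofactor HCF-1 that OGT cleaves and modifies, rose from 67.1 ± 8.22 to 170.9 ± 22.1 CPM, a log2 change of 1.35 (SE 0.11, adjusted p = 7.06e-07 in edgeR). Bap1, the deubiquitinase gene of the same complex, rose from 62.1 ± 2.76 to 105.2 ± 7.19 CPM. Tet1 was the remaining rise. The falls were Tet3, Foxk2 (25.1 ± 2.62 to 16.6 ± 2.65 CPM) and Foxk1 (52.4 ± 7.27 to 38.5 ± 2.35 CPM), while Asxl1, Asxl2 and Tet2 were not called. The Foxk and Asxl genes were chosen after their values were seen. Of 20 bromodomain genes, which encode readers of acetylated histones, 5 rose and 4 fell, 45.0% in all, next to 61.1% of all tested genes. With upper-quartile factors 8 rose and 2 fell, and without WT 2, WT 5 or OGT-deficient 2 in turn 3 rose; with the replicate number as a block 3 rose and 2 fell. The genes with the smallest p were Atad2 (5.66 ± 0.380 to 13.8 ± 1.89 CPM) and Phip (17.9 ± 1.84 to 31.3 ± 1.79 CPM), which rose, and Brd3 (56.9 ± 2.66 to 39.3 ± 2.03 CPM), which fell. Over the 137 tested genes of the 9 related lists, 35 rose (25.5%) and 52 fell (38.0%), with a median log2 change of -0.13, next to 31.6% and 29.4% of all tested genes. With upper-quartile factors the balance turned, to 45 higher and 35 lower.

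Markers of liver cell types moved with these results. Of 8 hepatocyte markers 7 fell, with summed levels of 101138 to 119971 CPM in WT and 43938 to 56374 CPM in OGT-deficient libraries. All 8 bile duct markers rose (31.5 to 60.2 and 149 to 259 CPM), as did 7 of 8 stellate and myofibroblast markers (88.7 to 296 and 664 to 1088 CPM) and 6 of 7 recruited macrophage markers (17.8 to 26.8 and 81.4 to 117 CPM). Of the other lists, 2 of 6 Kupffer cell markers rose, 2 of 6 endothelial markers fell, and 1 of 6 lymphocyte markers rose and 1 fell. No defining marker was at 0 in any library other than Cftr. In whole liver, fewer cells of a type and less RNA per cell cannot be told apart, and the part of cell makeup in the changes of the chromatin genes was not tested.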

How the data were processed

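The submitters' processing notes name HTSeq 0.9.1, TopHat2 2.1.0 and the genome build GRCm38 (mm10). Each deposited file holds raw whole-number counts for 24421 gene symbols. Neither annotation release nor strand setting is given in the sources used here, and reads of overlapping and antisense genes cannot be told apart. HTSeq's 5 closing lines were kept apart from all gene counts: reads outside genes made up 8.95 to 10.7% and ambiguous reads 1.78 to 2.17% of uniquely aligned reads.

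The gene test was edgeR 4.0.16 under R 4.3.3 (filterByExpr, TMM, glmQLFit and glmQLFTest on group alone, Benjamini-Hochberg over 14104 tested genes, threshold 0.05). SE is the size of the log2 fold change over the root of F, and 95% intervals use the moderated degrees of freedom. CPM use TMM-scaled library sizes. Exon lengths, coordinates (1-based) and shared 50-base stretches come from GENCODE mouse release 21, in which all 71 genes were found. Within groups, 16 pairs of libraries had a chi-square per degree of freedom of 23.9 to 135.0, so none was treated as a duplicate. The scripts were tested on simulated data. Alternatives were DESeq2 size factors, upper-quartile factors, no filter, CPM 1 in 4 libraries, DESeq2 1.42.0, limma 3.58.1 (voom), the replicate number as a block and leaving out each library. Figures were drawn with matplotlib 3.10.9.

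Genes and lists were chosen with earlier results of these data known. Values per library are given for called genes changed at least 1.5-fold and for the gene of each family with the highest level per kb. Of each related list, the 3 genes with the smallest p are named. Genes outside this rule are said to be chosen after their values were seen, except the remaining genes of the families. The values of 1 tested gene are not reported here; it is included in the counts and family sums.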

Additional observations from a re-analysis of the deposited data

Results flagged for a closer look

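In 6 of 136 groups of libraries (68 genes in each of 2 groups), a single library lay far from the others of its group; chance gives about 1 in 20. In WT 4, Hdac1 was low at 34.1 CPM (others 40.9 to 43.3), Sirt5 was low at 11.7 CPM (others 14.6 to 15.2) and Kmt2c was high at 50.8 CPM (others 34.3 to 38.9). Cbx5 was high in OGT-deficient 1 at 38.8 CPM (others 31.4 to 31.9). Hdac9 was high in OGT-deficient 2 at 2.24 CPM (others 1.41 to 1.52), and Sirt6 in OGT-deficient 3 at 6.15 CPM (others 4.46 to 4.59). None of these 6 genes was called.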

How the results depend on the processing

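Over 16 alternatives the count of chromatin genes called stayed within 1.5 times of the reported 13 higher and 22 lower: 10 to 13 and 19 to 22 without single libraries, and 18 and 17 with upper-quartile factors. Of 35 called genes 27 kept their call throughout, 8 lost it at least once and none changed direction. Of 33 uncalled genes 7 passed at least once and 10 changed direction at least once; Hdac2 and Kdm2a passed with upper-quartile factors. With upper-quartile factors the log2 fold change turned to 0.05 for Cbx5, 0.054 for Hdac5, 0.0045 for Setd2, 0.00098 for Setd5 and 0.0084 for Sirt5. Kdm3a turned to -0.0051 without a filter. Without single libraries the log2 fold changes were -0.070 to 0.045 for Kdm3a, -0.031 to 0.052 for Kmt2b, -0.046 to 0.076 for Setd1a, -0.046 to 0.087 for Kat5 and -0.028 to 0.14 for Kat8. The cause of these turns was not tested. No pairing of same-numbered libraries is given in the sources used here. The correlations of their deviations were 0.0525, -0.103, 0.022 and 0.104, and 1 of 4 OGT-deficient libraries correlated best with its own number. Whether any of them share a litter or batch cannot be told from these values. With the replicate block 11 chromatin genes were higher and 20 lower, and Kdm3a (-0.016), Kmt2b (-0.022) and Setd1a (-0.032) turned. Depth and spread limit the scarcer genes: the SE of the log2 fold change was 0.29 for Setd4 and 0.25 for Hdac9.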
